A study of Danio rerio with 18 samples.

Results

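The 4 circadian clock genes measured here are per1b and per3, which encode period repressors, rorca, which encodes a retinoid-related orphan receptor, and hlfa, which encodes a clock-output transcription factor. They were taken by current gene symbol, matched through RefSeq identifiers, and are 4 of the 37105 features on the array. Expression was measured in pools of 40 whole zebrafish embryos with one-colour NimbleGen arrays, 3 arrays in each of 6 groups. The exposed groups were MES embryos (gold nanoparticles with a 1.5 nm core and the MES ligand, at 50 µg/mL) and TMAT embryos (the same core size with the TMAT ligand, at 10 µg/mL). The control embryos (CON) received vehicle. Pools were taken at 48 and at 24 hpf (hours after fertilization). Per the labels, all embryos, controls included, were dechorionated at 4 hpf and kept in their treatment from 6 hpf at 37 °C. Neither the strain, the lighting, the hour of collection nor whether pools came from separate clutches is given in the sources used here. All p-values below thus rest on the spread among these pools alone. The ages lie 24 h apart.

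In the vertebrate clock, Clock and Bmal proteins drive transcription of the period and cryptochrome genes, whose products return to the nucleus and repress that drive. Receptors of the Ror and Rev-erb families form a second loop by acting in opposite directions on the bmal genes, and factors of the Hlf, Tef and Dbp family carry the rhythm to output genes. Zebrafish embryos and their peripheral tissues carry clocks that respond directly to light, and light is known to start coordinated rhythms in the embryo.

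Median intensities over all features ran from 1809 to 2197 across the arrays. Control arrays were less alike than exposed ones: the mean correlation of an array with the others of its group was 0.964 to 0.987 in MES arrays, 0.944 to 0.983 in TMAT arrays and 0.885 to 0.955 in controls. Within each age the least alike were the 48 hpf control array 2 and the 24 hpf control array 1 (mean correlations 0.881 and 0.885). Random probes, a measure of background, read 168.6 in control array 2 at 48 hpf and 78.8 to 126.3 in the others. All 4 clock genes were above these probes on every array, by at least 1.73 on the log2 scale for per3 and by at least 4.37 for hlfa. A second deposited table gives the same values under other sample labels in 16 of its 18 columns, 8 of them of the other age. Marker genes of several tissues were measured, as the label of whole embryos implies, and are given beside the clock gene results.

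The period gene per1b, formerly called per4 (NM_212439, 11 probes), had log2 intensities of 12.05, 11.20 and 11.77 in MES embryos at 48 hpf. It had 11.22, 11.54 and 10.80 in TMAT embryos and 12.29, 12.34 and 11.23 in controls of that age. At 24 hpf it had 11.78, 11.49 and 10.46 in MES embryos, 10.75, 9.70 and 11.39 in TMAT embryos and 9.28, 10.08 and 10.72 in controls. The control values at 48 hpf all lay above those at 24 hpf, while in both exposed groups the ages overlapped. Its group means ran, from the highest, through CON, then MES at 48 hpf, MES at 24 hpf, TMAT at 48 hpf and TMAT at 24 hpf to CON at 24 hpf. None of the 5 neighbouring pairs in that order differed by more than the larger SD of the pair, and the arrays overlapped in each.

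The other period gene, per3 (NM_131584, 8 probes), had values of 9.23, 9.07 and 9.29 in MES embryos at 48 hpf. In TMAT embryos it had 9.55, 9.62 and 8.97, and in controls of that age 10.07, 10.55 and 9.29. At 24 hpf the values were 9.99, 9.58 and 8.81 in MES embryos, 9.74, 8.38 and 10.02 in TMAT embryos and 8.48, 8.71 and 9.01 in controls. The 3 control arrays at 24 hpf were low and close together, and control array 3 at 48 hpf lay well under the other two. Only the lowest step in the order of means, MES at 48 hpf over CON at 24 hpf, was larger than the SDs (0.47, larger SD 0.27) with no overlap of arrays. That pair differs in both agent and age, and the share of all features separating likewise was not counted.

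The nuclear receptor gene rorca (NM_001082819, 12 probes) had values of 9.86, 9.68 and 10.00 in MES embryos at 48 hpf. TMAT embryos had 10.03, 10.41 and 9.96, and controls of that age 10.96, 11.32 and 10.75. At 24 hpf it had 10.39, 10.40 and 8.78 in MES embryos, 10.29, 8.63 and 10.42 in TMAT embryos and 9.30, 9.25 and 9.62 in controls. All 3 control arrays at 48 hpf lay above every one of the other 15 arrays. In the order of means, that step (CON over TMAT embryos, 0.87, larger SD 0.29) was the only one larger than the SDs of its pair. The share of all features with these control arrays above all 15 others was not counted. From the MES or TMAT arrays of that age alone, the controls separated in 30.5% and 23.7% of all features, in either direction.

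The output gene hlfa (NM_001077334, 9 probes), whose protein binds D-box elements, had the smallest span over the arrays, 2.01 on the log2 scale. It had 12.59, 12.72 and 12.07 in MES embryos at 48 hpf, 12.31, 12.39 and 12.03 in TMAT embryos and 12.73, 13.02 and 12.61 in controls. At 24 hpf it had 12.49, 12.09 and 11.85 in MES embryos, 11.92, 11.69 and 12.27 in TMAT embryos and 11.00, 12.60 and 12.38 in controls. Control array 1 at 24 hpf was the lowest of all 18, and no neighbouring pair in the order of means differed by more than the larger SD.

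**Figure D1:**
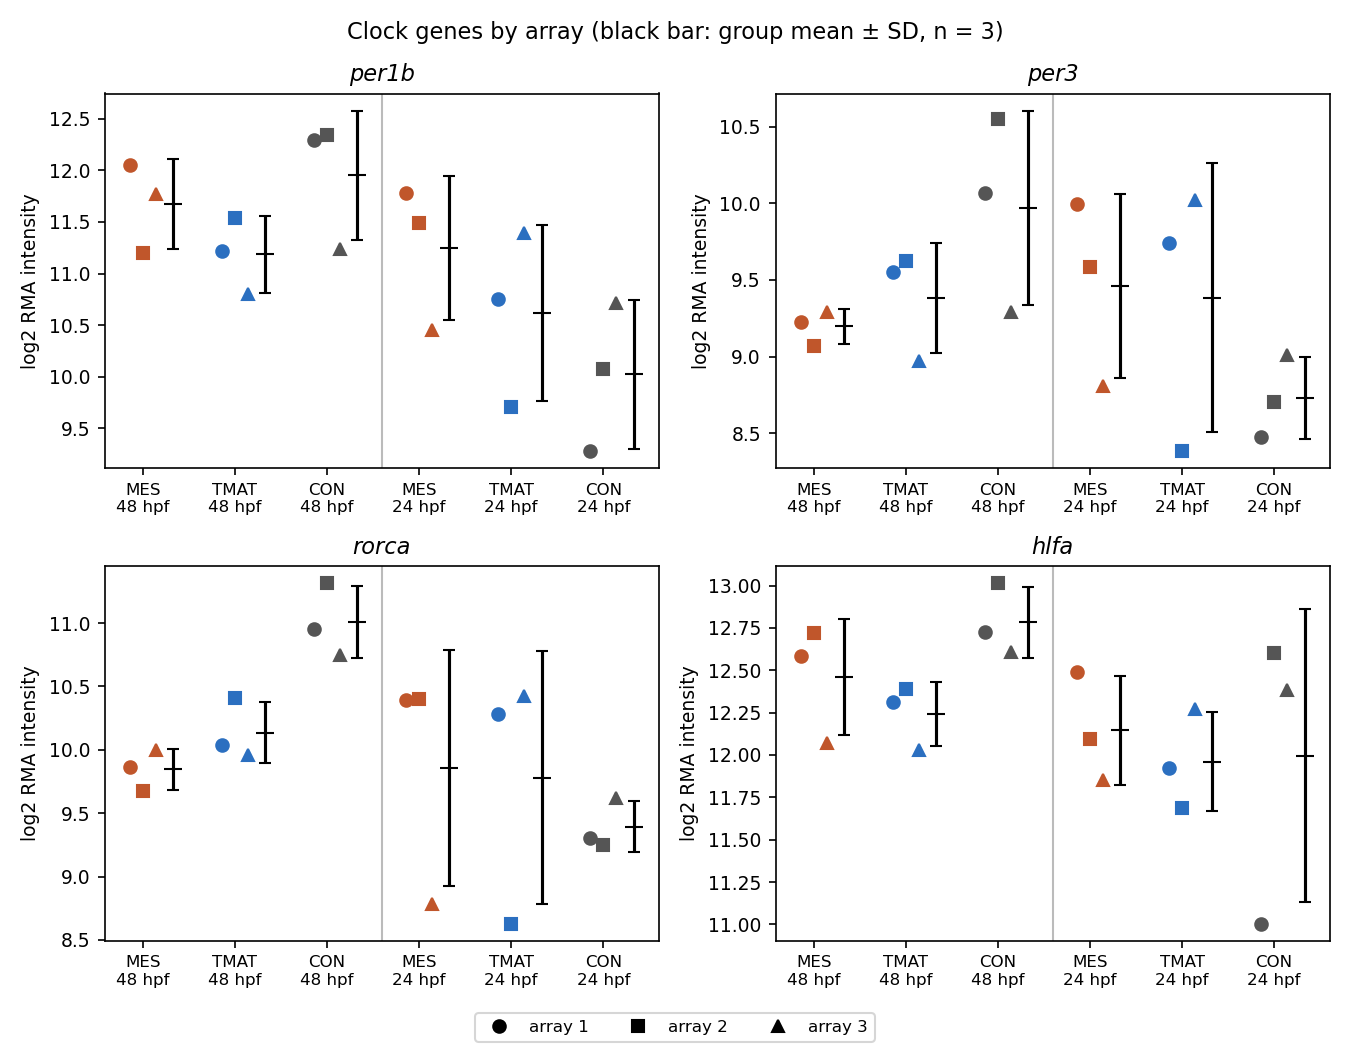
The y axes give the log2 RMA intensity of each clock gene on each array, with MES, TMAT and CON groups at 48 hpf to the left of the line and at 24 hpf to the right; symbols are arrays 1 to 3 and black bars the group mean ± SD (n = 3). The CON arrays at 48 hpf hold the highest group mean in all 4 panels, and the CON arrays at 24 hpf the lowest for per1b, per3 and rorca.

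The first comparison asks how the genes differed between the ages. In controls, per1b averaged 11.95 ± 0.62 at 48 hpf and 10.02 ± 0.72 at 24 hpf (mean log2 intensity ± SD, n = 3 each), a 3.81-fold rise (log2 difference 1.93 ± 0.48 SE, limma adjusted p = 0.00751). Also in controls, rorca rose 3.07-fold (1.62 ± 0.44 SE, adjusted p = 0.0137) and per3 2.36-fold (1.24 ± 0.41 SE, adjusted p = 0.0355). The difference for hlfa was 0.79 ± 0.34 SE and did not pass (adjusted p = 0.1002). A call is an adjusted p under 0.05 over all 37105 features, and 13.4% of all features were called higher at 48 hpf in controls, against 3 of these 4 genes. The members' median was 1.43, against −0.0084 for all features. In all 4 genes every control array at 48 hpf lay above every one at 24 hpf, as in 16.7% of all features, and for hlfa the gap was between 12.61 and 12.60. In whole embryos, a change in the number of cells of a type and a change in RNA per cell cannot be told apart.

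The call of per1b held without any 1 of the 6 (adjusted p 0.00332 to 0.0385). That of rorca was lost without control array 2 at 48 hpf (1.46, adjusted p = 0.0543). For per3 the call ended when either of control arrays 1 and 2 at 48 hpf was left out (1.19 and 0.95, adjusted p 0.0952 and 0.148) or either of control arrays 1 and 2 at 24 hpf (1.11 and 1.23, adjusted p 0.103 and 0.0636), although the last of these left the difference almost as it was. The difference for hlfa passed without control array 2 at 24 hpf (1.09, adjusted p = 0.0333) and was 0.29 without control array 1 of that age (adjusted p = 0.456). Fitted on the control arrays alone, with the same differences, rorca was called and per1b and per3 were not (adjusted p = 0.0571 and 0.106), and the calls over all features numbered 2665 against 9942. The ordinary statistic did not call per3 (adjusted p = 0.0597). With the 2 control arrays least like the others left out together, none of the 4 genes was called, while 6954 of the 37105 features still were. The differences were then 1.36 for per1b, 0.82 for per3, 1.42 for rorca and 0.18 for hlfa, against 1.93, 1.24, 1.62 and 0.79 with all arrays.

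**Figure D2:**
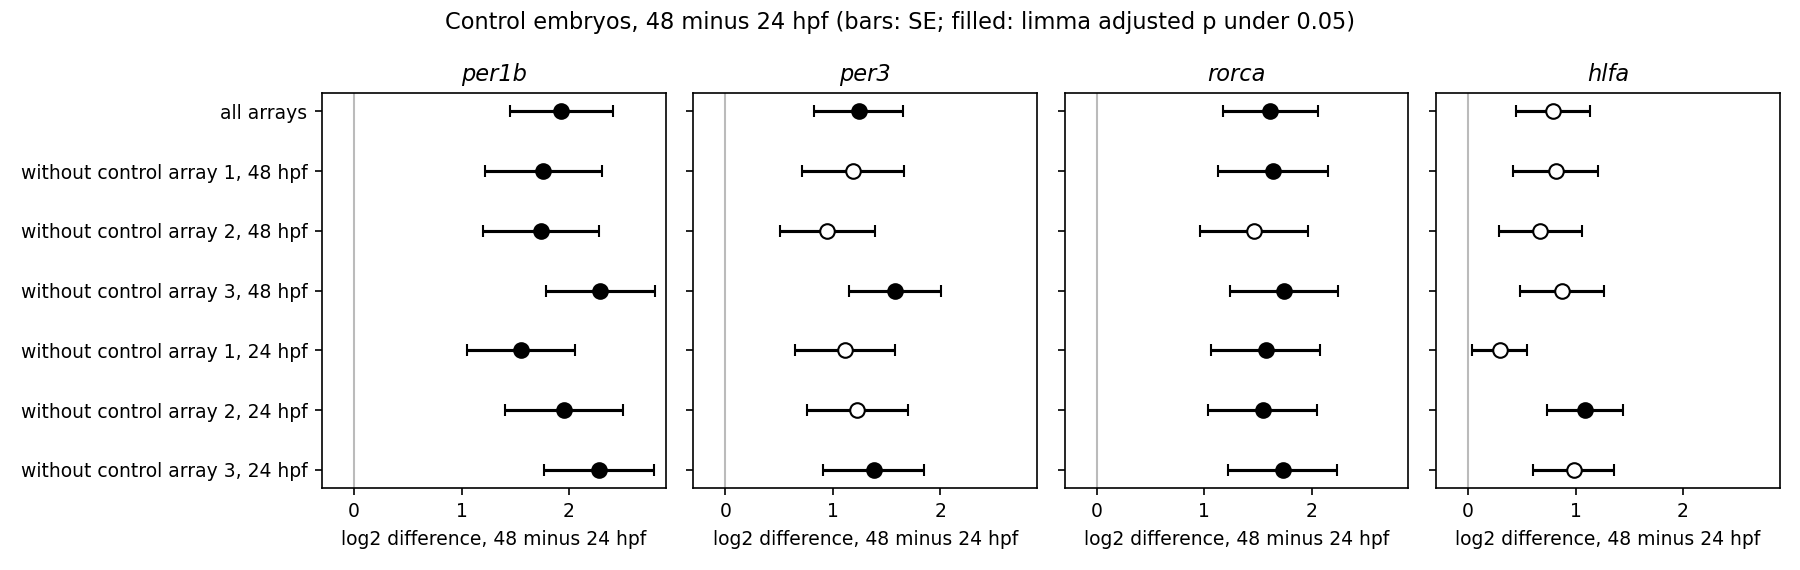
The x axes give the log2 difference of 48 minus 24 hpf in control embryos for each gene, with all arrays and with each control array left out; bars are SEs and filled points passed at a limma adjusted p under 0.05. All points for per1b are filled, those for per3 are filled in 3 of 7 settings, and hlfa drops to 0.29 without control array 1 at 24 hpf.

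In exposed embryos none of the 4 genes was called between the ages. In MES embryos the log2 difference of 48 minus 24 hpf was 0.43 for per1b (95% interval −0.59 to 1.44), −0.26 for per3 (−1.14 to 0.61), −0.011 for rorca (−0.95 to 0.93) and 0.32 for hlfa (−0.41 to 1.04). In TMAT embryos it was 0.57 for per1b (−0.44 to 1.58), −0.0015 for per3 (−0.87 to 0.87), 0.36 for rorca (−0.58 to 1.30) and 0.28 for hlfa (−0.44 to 1.01). The members' median was 0.15 in MES and 0.32 in TMAT embryos. Over all features 13.4% were called higher at 48 hpf in MES embryos and 7.9% in TMAT embryos. A further 4660 and 2802 features were called lower. No clock gene had all its 48 hpf arrays above its 24 hpf arrays in either group, against 26.4% of all features in MES and 16.1% in TMAT embryos. By limma 0 of the 4 passed even at an unadjusted p under 0.05 in either group, against 14499 of the 37105 features in MES and 9756 in TMAT embryos. The ordinary statistic also called 0 of the 4, and its count over all features is not given here.

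Whether the day's change in exposed embryos differed from that in controls was tested directly, as the effect of a particle at 48 hpf minus its effect at 24 hpf. All 4 genes had negative values for both particles, which share the control arrays, and none passed. The values of hlfa turned positive (0.14 for MES and 0.11 for TMAT) without the 2 control arrays named above. For MES embryos the value was −1.63 ± 0.63 SE for rorca (95% interval −2.96 to −0.30, limma adjusted p = 0.232), −1.50 ± 0.58 for per3 (adjusted p = 0.233), −1.50 ± 0.67 for per1b (adjusted p = 0.292) and −0.47 ± 0.48 for hlfa (adjusted p = 0.631). For TMAT embryos it was −1.36 ± 0.67 for per1b, −1.26 ± 0.63 for rorca, −1.24 ± 0.58 for per3 (adjusted p = 0.610 for these 3) and −0.51 ± 0.48 for hlfa (adjusted p = 0.677). The calls over all features were 0.0027% for MES and 0% for TMAT embryos, and the medians over all features −0.034 and −0.013. At an unadjusted p under 0.05 stood 3 of the 4 genes for MES embryos (per1b, per3 and rorca) and 1 for TMAT embryos (per3), beside 5960 and 2772 of the 37105 features. The 3 genes were called for both particles when arrays were weighted gene by gene, a setting chosen after seeing the data that called 7626 and 4178 features. Leaving out any 1 of the arrays compared gave no call. The 4 measured neuronal markers, described with the 48 hpf comparison, were also negative for both particles (median −1.37 for MES and −1.13 for TMAT), with grin1a at −1.76 and −1.21. The medians of the other marker lists were positive: 0.66 and 0.055 for photoreceptor, 0.17 and 0.078 for skeletal muscle and 0.089 and 0.064 for red blood cell markers. Within the last list ppox stood at −1.51 and −0.98. In the photoreceptor list, where 5 and 4 of the 6 measured were positive, rs1a stood at 1.28 and 1.19 and sagb at −0.56 and −0.39. In the skeletal muscle list, where 6 and 4 of the 6 measured were positive, tnni2b.2 stood at 1.02 and 1.04. The part of these markers was not tested. The rises in controls and their absence among the calls in exposed embryos are therefore not shown to differ.

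**Figure D3:**
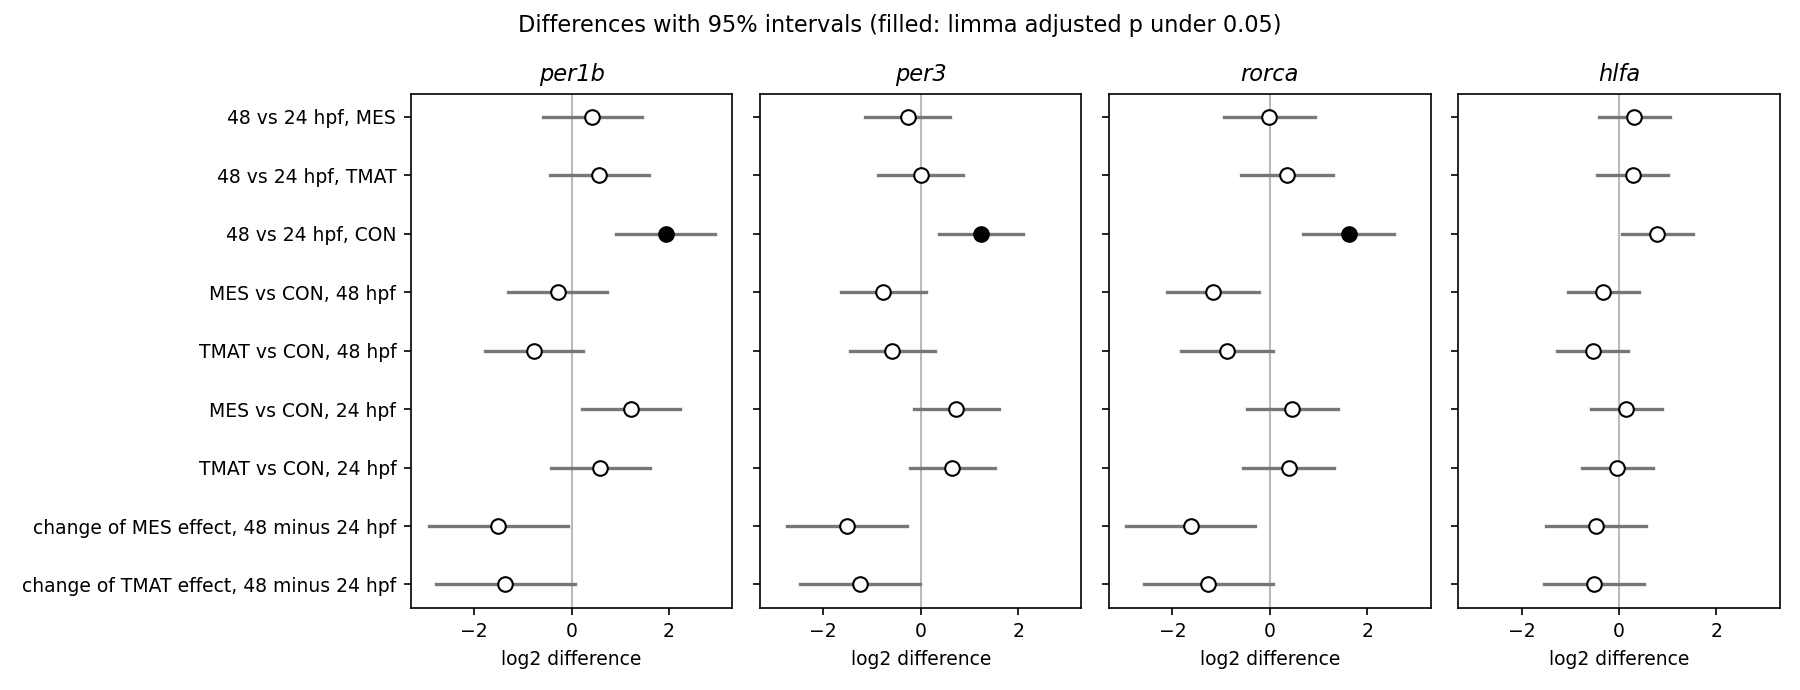
The x axes give the log2 difference (or change of difference) for each gene in the 9 comparisons other than the mean over agents, with 95% intervals from limma; filled points passed at an adjusted p under 0.05. The 3 filled points are those of per1b, per3 and rorca at 48 against 24 hpf in controls, and the points of the bottom 2 comparisons lie below 0 in all 4 genes. In these 2 comparisons the interval crosses 0 for hlfa with either particle and for per1b and rorca with TMAT particles.

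Averaged over the 3 agents, per1b and rorca were called higher at 48 than at 24 hpf, 2 of the 4 genes against 19.3% of all features. The mean log2 difference was 0.98 ± 0.28 SE for per1b (limma adjusted p = 0.00926) and 0.65 ± 0.26 for rorca (adjusted p = 0.0498). It was 0.46 ± 0.20 for hlfa (adjusted p = 0.0713) and 0.32 ± 0.24 for per3 (adjusted p = 0.289). The call of per1b held without any 1 of the 18 arrays (0.82 to 1.104), whereas that of rorca held in 5 of the 18 cases (0.46 to 0.76, adjusted p 0.0279 to 0.0963). The control difference was the largest of the 3 in each average, although the changes were not shown to differ between agents.

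At 48 hpf all 4 genes averaged lower with either particle than in controls and none was called. In MES embryos rorca averaged 9.85 ± 0.16 against 11.01 ± 0.29 in controls (SD, n = 3 each), a log2 difference of −1.16 ± 0.44 SE (limma adjusted p = 0.127). In TMAT embryos rorca averaged 10.13 ± 0.24, a difference of −0.87 ± 0.44 SE (adjusted p = 0.277). The doses differed, so the particles are given side by side. The values for per3 were −0.77 ± 0.41 with MES and −0.59 ± 0.41 with TMAT particles (adjusted p = 0.269 and 0.427). Those for per1b were −0.28 ± 0.48 and −0.77 ± 0.48 (0.764 and 0.370), and those for hlfa −0.32 ± 0.34 and −0.54 ± 0.34 (0.605 and 0.379). The members' medians were −0.55 and −0.68, beside −0.14 and −0.15 for all features. Of all features 5.76% were called in either direction with MES and 0% with TMAT particles. The MES share depended on the setting: 2138 features were called with all arrays, 0 with only the compared arrays fitted, 3 without the 2 control arrays named above and 21 with the ordinary statistic. Without control array 1, MES array 1 or MES array 2 at 48 hpf 0 were called, without control array 2 there were 2, and without control array 3 there were 6260.

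The arrays of rorca did not overlap with controls for either particle at 48 hpf, and those of hlfa did not with TMAT particles. That was 1 of 4 genes for MES, where 30.5% of all features separated likewise, and 2 of 4 for TMAT particles, where 23.7% did. At an unadjusted limma p under 0.05 stood 1 of the 4 genes with MES particles (rorca), beside 8721 of the 37105 features. With TMAT particles it was 0 of the 4, beside 7519 features. Weighting arrays gene by gene gave calls for rorca (−1.09) and per3 (−0.82) with MES particles and for rorca (−0.77) and per1b (−0.96) with TMAT particles, but the same setting called 19103 and 14393 of the 37105 features. Leaving out any 1 array gave no call. The difference of rorca then ran from −1.29 to −1.01 with MES and from −1.01 to −0.72 with TMAT particles. That of per3 ran from −1.11 to −0.48 and from −0.93 to −0.30, and that of per1b from −0.64 to −0.05 and from −1.13 to −0.58.

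Measured neuronal markers differed in the same direction. Of 16 listed, 4 were measured, namely the NMDA receptor gene grin1a, the glutamate transporter genes slc17a6a and slc17a6b, and the glycine transporter gene slc6a5. At 48 hpf all 4 were lower than in controls with either particle (median −0.86 with MES and −0.57 with TMAT), and grin1a fell with MES particles (−1.32 ± 0.33 SE, limma adjusted p = 0.0345), a call lost with the compared arrays fitted alone, where 0 features were called. The log2 of their summed intensities was 14.69 to 15.12 in MES arrays, 14.81 to 15.14 in TMAT arrays and 15.24 to 15.59 in controls. Neither particle overlapped with controls in this sum. Single features separated from these controls, in either direction, in 30.5% of cases with MES and 23.7% with TMAT particles. The brightest of the 4, slc6a5, overlapped with controls and differed by −0.19 with MES and −0.10 with TMAT particles. The 6 measured photoreceptor markers, of 29 listed, had medians of 0.20 with MES and −0.011 with TMAT particles. Of them 5 and 3 had positive values, while sagb stood at −0.56 and −0.71. The 6 skeletal muscle markers, of 20, had medians of 0.034 and 0.013. With either particle 4 of these were positive, while mybpc1 stood at −0.53 and −0.51. No marker of these 2 lists was called. Of the 3 measured red blood cell markers, of 12 listed, the haem synthesis gene ppox fell with MES particles (−1.19 ± 0.29 SE, adjusted p = 0.0301, a call lost in the same fit) and stood at −0.70 with TMAT particles, while hbbe3 stood at 0.60 and 0.63 and hbae3 at 0.029 and −0.010. In controls hbae3 and the muscle markers mylpfb and acta1b averaged 15.77, 15.85 and 15.78 on the log2 scale. At such high intensities a difference may not show. The part of all these markers in the clock gene values was not tested.

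At 24 hpf the period genes and rorca averaged higher with either particle than in controls, again with no call. With MES particles per1b averaged 11.24 ± 0.70 against 10.02 ± 0.72 in controls (1.22 ± 0.48 SE, limma adjusted p = 0.787), per3 differed by 0.73 ± 0.41, rorca by 0.47 ± 0.44 and hlfa by 0.15 ± 0.34. With TMAT particles the differences were 0.59 ± 0.48 for per1b, 0.65 ± 0.41 for per3, 0.39 ± 0.44 for rorca and −0.035 ± 0.34 for hlfa (adjusted p 0.654 to 0.976). With single arrays left out, rorca ran from 0.19 to 1.003 with MES and from 0.065 to 0.96 with TMAT particles, per1b from 0.85 to 1.61 and from 0.20 to 1.05, and per3 from 0.47 to 1.06 and from 0.33 to 1.15. Of all features 0% were called with either particle at 24 hpf. The groups overlapped in all 4 genes for both particles, where 7.49% of all features separated with MES and 6.53% with TMAT particles. An unadjusted limma p under 0.05 was reached by 1 of the 4 genes with MES particles, per1b, beside 1459 of the 37105 features. With TMAT particles it was reached by 0 of the 4, beside 2242 features. The ordinary statistic called 0 of the 4, and its count over all features is not given here. The 4 neuronal markers had positive values with both particles at this age (median 0.46 with MES and 0.39 with TMAT). Medians of the other lists were −0.33 and −0.16 for photoreceptor, −0.15 and −0.0018 for skeletal muscle and 0.080 and −0.024 for red blood cell markers. The part of these markers was not tested.

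Within the exposed groups at 24 hpf the arrays disagreed on rorca and the period genes. The SD of rorca was 0.93 in MES and 1.00 in TMAT embryos at 24 hpf, wider than in 96.9% and 95.8% of all features. It was 0.16 and 0.24 in the same groups at 48 hpf, and 0.29 and 0.20 in controls at 48 and 24 hpf. For per3 the SD at 24 hpf was 0.60 in MES, 0.88 in TMAT and 0.27 in control embryos, and for per1b it was 0.70, 0.85 and 0.72. The low arrays were the same ones for these 3 genes: relative to its group mean, MES array 3 stood at −1.08 for rorca, −0.79 for per1b and −0.65 for per3, and TMAT array 2 at −1.15, −0.91 and −0.9995. For hlfa these arrays stood at −0.29 and −0.27. Each of the 2 arrays also had the lowest mean correlation with the rest of its group over all features (0.964 and 0.944). All 4 neuronal markers were low there too: slc17a6b stood at −1.17 on MES array 3 and −1.45 on TMAT array 2, slc17a6a at −0.53 and −0.94, grin1a at −0.40 and −0.75, and slc6a5 at −0.24 on both. Markers of the other lists went both ways, apart from the photoreceptor list on MES array 3, where all measured were positive. That list ran from 0.10 (sagb) to 0.50 (pde6hb) on MES array 3 and from −0.16 (rs1b) to 0.26 (rs1a) on TMAT array 2. The skeletal muscle list ran from −0.12 (tnni2b.2) to 0.36 (ampd1) and from −0.13 (acta1b) to 0.42 (tnni2b.2). Of the red blood cell markers, ppox stood at −0.33 and −0.35, hbbe3 at −0.030 and 0.14 and hbae3 at 0.093 and 0.079. The receptor gene rorb, a relative of rorca, stood at 0.25 and −0.12. The part of these markers in the low clock gene values was not tested.

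**Figure D4:**
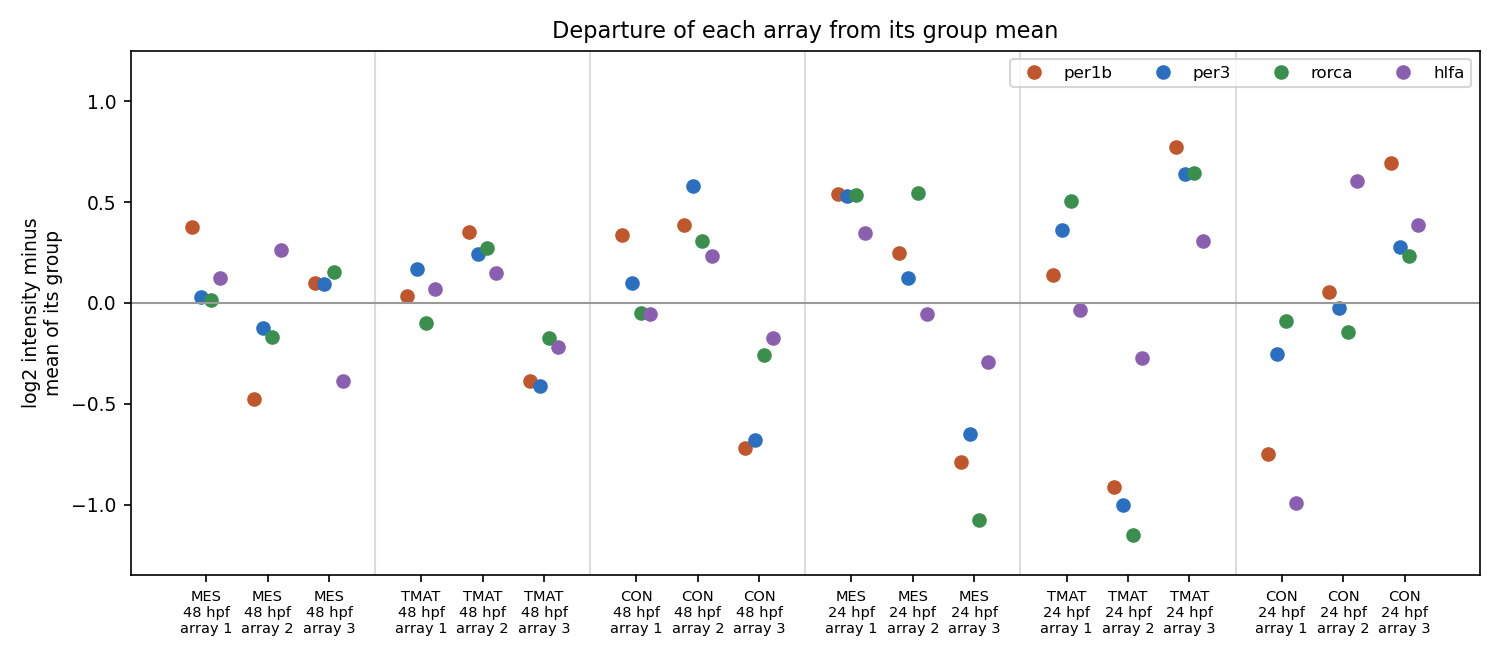
The y axis gives the log2 intensity of each clock gene on each of the 18 arrays minus the mean of its group; colours are the 4 genes. On MES array 3 and TMAT array 2 at 24 hpf the points of per1b, per3 and rorca all lie at −0.65 or lower, while hlfa is at −0.29 and −0.27 there and lowest on CON array 1 at 24 hpf.

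With group means subtracted, the departures of the 18 arrays correlated at r = 0.91 between per1b and per3, 0.89 between per3 and rorca and 0.81 between per1b and rorca. With hlfa the correlation was 0.64 for per1b, 0.53 for per3 and 0.37 for rorca. These values describe arrays that share their RNA pool and normalization. Many other features departed in the same way: 0.717% of all features followed per1b more closely than per3 did, and 1.68% followed per3 more closely than per1b did. The shares that followed the first and the second gene of a pair more closely were 2.26% and 1.70% for per3 and rorca. They were 6.31% and 4.27% for per1b and rorca, and 19.8% and 26.5% for rorca and hlfa.

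Among 2465 other features with an informative symbol, those most like each clock gene over the 18 arrays were named by Pearson's r, with r after subtracting the mean of each age beside it. For per1b they were the receptor phosphatase gene ptprma (0.94 and 0.91), nkd2b, a relative of the Wnt antagonist naked cuticle (0.92 and 0.88), and spire1a, for an actin nucleator (0.92 and 0.88). For per3 they were the transcription factor gene rfx3 (0.96 and 0.97), arhgef11 (0.95 and 0.95), and the splicing factor gene mbnl1 (0.95 and 0.97). For rorca they were prkacaa, for a catalytic subunit of protein kinase A (0.96 and 0.95), ypel1 (0.95 and 0.94) and again mbnl1 (0.95 and 0.94). For hlfa they were the Eph receptor gene ephb3a (0.91 and 0.87), spata2 (0.90 and 0.87) and gnb5a, for a G protein beta subunit (0.90 and 0.87). An r over 0.9 was reached by 8 of the 2465 features for per1b, 29 for per3, 14 for rorca and 2 for hlfa.

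Of 102 clock, clock-output and light-input genes listed, 5 could be matched to a feature by symbol, the 4 above and rorb. The bmal, clock, cryptochrome, Rev-erb, kinase, melatonin and opsin genes of the list could not be matched by symbol and were not analysed here. The receptor gene rorb (NM_001082856), the relative of rorca known in mammals from retina and brain, rose between the ages in every agent. It had log2 intensities of 15.03, 14.59 and 14.99 in MES, 14.80, 14.95 and 14.44 in TMAT and 15.12, 15.08 and 14.56 in control embryos at 48 hpf, against 12.003 to 12.63, 12.10 to 12.46 and 11.55 to 12.72 in the same groups at 24 hpf. The log2 differences were 2.49, 2.51 and 2.75 (SE 0.29 each, limma adjusted p = 2.15e-05, 1.95e-05 and 7.01e-06). Its differences from controls were −0.048 with MES and −0.19 with TMAT particles at 48 hpf, and 0.22 and 0.053 at 24 hpf (adjusted p 0.741 to 0.954). The change of its particle effect between the ages was −0.26 ± 0.41 SE for MES and −0.24 ± 0.41 for TMAT embryos (adjusted p = 0.761 and 0.815).

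Tissue markers moved with age as well. Averaged over the 3 agents, 5 of 6 photoreceptor markers rose, among them rs1a (4.43), sagb (3.38) and saga (1.62), as did all 4 neuronal markers, with slc6a5 at 2.20 and grin1a at 2.31. Of 6 skeletal muscle markers 5 rose, ampd1 (6.59), capn3a (3.96) and tnni2b.2 (4.96) among them, and of 3 red blood cell markers 2 fell, hbbe3 (−1.44) and ppox (−0.95). These counts are of calls, beside 19.3% of all features called higher and 8650 of the 37105 called lower. Among the counted rises grk1a (0.66, limma adjusted p = 0.0499) and mylpfb (0.26, adjusted p = 0.0368) were small. By agent ppox fell in MES (−1.63) and TMAT (−1.10) embryos and stood at −0.12 in controls (limma adjusted p = 0.795). The log2 of the summed photoreceptor marker intensities stood at 13.99 to 14.28, 13.79 to 14.28 and 13.96 to 14.19 in MES, TMAT and control arrays at 48 hpf. At 24 hpf it stood at 11.10 to 11.73, 11.39 to 11.77 and 11.35 to 12.47. The part of tissue growth in the clock gene values was not tested.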

How the data were processed

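The authors deposited 1 table per array of RMA intensity values on a linear scale, per the file headers and the submitters' processing notes. Software version and whether both ages were normalized together are not given in the sources used here. RMA subtracts background, equalises intensity distributions and summarises a median of 8 probes per feature, so only shifts relative to other features remain visible. The log2 was taken with no further scaling. Of 3051 RefSeq features, 2659 had a current symbol (RefSeq annotation of assembly GRCz12tu). One limma 3.58.1 fit (R 4.3.3) over 18 arrays and 37105 features held 6 group means (12 residual degrees of freedom). Its 10 two-sided contrasts were each adjusted by the Benjamini-Hochberg method. The fit was tested on simulated data with the same spread in every group. The real groups spread unequally (median SD 0.48 and 0.42 in controls, 0.21 to 0.33 in exposed groups), which that simulation did not cover. The per-array labels were used. Same-numbered arrays did not deviate together (r over 0.1 in 13 of 45 pairs). Members and lists were chosen with earlier results of these data known. The rule named the 4 members, 3 features most like each, other measured clock genes, and up to 3 markers per list by smallest p. Some further markers were named outside that rule. The number of arrays limits the precision.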

Additional observations from a re-analysis of the deposited data

How the results depend on the processing

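Of 10 other settings listed, 9 were run. The default estimate of array weights stopped before reaching its tolerance, with 1 control array at a weight of 212.9, and gene-by-gene weights, chosen after seeing the data, took its place. The number of clock genes called at 48 against 24 hpf in controls was 3, and became 0 with the 2 control arrays least like the others left out, 1 with only the control arrays fitted and 1 to 3 with single arrays left out. Of all features 9942 were called with all arrays, 6954 without those 2 and 2665 with only the control arrays fitted. The number called over the mean of the 3 agents was 2, and became 1 with arrays centred on their median, with the replicate block, with the ordinary statistic, with gene-by-gene weights and without those 2 control arrays, and 1 to 2 with single arrays left out. Of all features 15825 were called there with all arrays and 15653 after centring. The count was 15093 with the replicate block, 23005 with gene-by-gene weights and 18627 without those 2 control arrays. For the ordinary statistic it is not given here. Gene-by-gene weights gave 2 calls for each particle at 48 hpf and 3 for each change of effect, against 0, while calling 19103 and 14393 features at 48 hpf and 7626 and 4178 for the changes (MES and TMAT). The replicate block, whose numbers do not pair the arrays, left 2 genes called in controls, with per3 at a limma adjusted p of 0.05004. Of all features 8833 were called in that setting. The cause of these shifts was not tested.

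Some values turned sign, not all of them near 0 before. Centring gave 0.0020 for rorca in MES and 0.0042 for per3 in TMAT embryos between the ages. Gene-by-gene weights gave −0.11 for rorca between the ages in TMAT embryos, against 0.36 unweighted. They gave −0.11 for hlfa with MES particles at 24 hpf, against 0.15. Without the 2 control arrays hlfa was at −0.35 with MES particles at 24 hpf. Its change of effect was then 0.14 for MES and 0.11 for TMAT embryos, against −0.47 and −0.51 with all arrays. Leaving out single arrays, hlfa ran from −0.35 to 0.45 with MES and −0.53 to 0.27 with TMAT particles at 24 hpf, and from −0.77 to 0.024 for the change with MES. Between the ages in MES embryos per3 ran from −0.59 to 0.0002 and rorca from −0.55 to 0.26, and in TMAT embryos per3 from −0.50 to 0.32 and rorca from −0.22 to 0.68.

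Under the combined table's own labels, which give 8 columns the other age, limma called 0 of all features, and so 0 clock genes, in each of the 10 comparisons. Between the ages the values became −0.87 (per1b) and −0.69 (hlfa) in MES, −0.53 (per1b) and −0.16 (hlfa) in TMAT, and −0.024 (per3) and −0.35 (rorca) in control embryos. The means over agents became −0.27 (per1b), −0.16 (per3), −0.41 (rorca) and −0.25 (hlfa). With MES particles at 48 hpf per3 was at 0.17 and rorca at 0.16, and with TMAT particles per1b was at 0.10, per3 at 0.48, rorca at 0.78 and hlfa at 0.013. With TMAT particles hlfa was at 0.28 at 24 hpf, and the change of effect of rorca was 0.40.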
